A study of Homo sapiens with 18 samples.

Results

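Cohesin and condensin are ring-shaped protein complexes that fold and hold chromosomes. Transcripts of 10 of their subunits were followed here: the cohesin subunits SMC1A, SMC3, RAD21, STAG1 and STAG2, and the condensin subunits SMC2, SMC4, NCAPD2, NCAPG and NCAPH. They were chosen by name, with earlier results of these data known. They are the rows with these symbols in the count and TPM tables of both cell lines, 10 of the 23686 genes listed there. All 10 passed the low-count filter in both lines.

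The RNA came from OCI-Ly1 and TMD8, established lines of human diffuse large B-cell lymphoma, measured by bulk RNA sequencing after depletion of ribosomal RNA. JIB-04, a small-molecule inhibitor of the Jumonji (JmjC) histone demethylases, was added at 150 or 500 nM, and control cells of each line received the vehicle, 0.01% DMSO. Every group had 3 libraries, 18 in all, which the labels call technical triplicates without saying whether the cultures were separate, so the p-values may measure technical spread only. The media differed (IMDM for OCI-Ly1, RPMI for TMD8), so line and medium cannot be told apart, and no treatment time is given in the sources used here.

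Both complexes are built on a pair of SMC proteins, long coiled-coil ATPases, closed into a ring by a subunit called a kleisin. In cohesin the pair is SMC1A and SMC3, the kleisin is RAD21, and either STAG1 or STAG2 binds the kleisin; cohesin extrudes interphase chromatin loops and holds sister chromatids together until anaphase. In condensin I the pair is SMC2 and SMC4, the kleisin is NCAPH, and NCAPD2 and NCAPG are its HEAT-repeat subunits; it compacts mitotic chromosomes. Condensin II uses the same SMC2 and SMC4 with its own NCAPD3, NCAPG2 and NCAPH2. Transcripts of condensin subunits and of mitotic regulators are known to vary with the cell cycle, and a CCAAT box near a cell-cycle homology element (CHR) is a known arrangement in promoters active in G2 and M phase.

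The promoter stretches below are those of the condensin members. At the higher dose their transcripts were called lower than with DMSO in both lines, except SMC2 in OCI-Ly1, which was called higher. At the lower dose no condensin change was called in OCI-Ly1. Whether promoter sequence goes with these changes was not tested. The stretches come from RefSeq on GRCh38.p14, a later build than the hg19 named for the deposited tables, and are used for sequence only. Windows of 300 bases, 250 of them before the start site, were found for 9 of the 10 genes, all but RAD21. There were 14 windows, since SMC1A, STAG2, SMC2 and SMC4 had several each. Each line runs 5′ to 3′ on the gene's strand (+ in all 5), in lower case, with matches to CCAAT or to the CHR letters TTTGAA and TTCGAA in capitals. A match on the opposite strand reads ATTGG or TTCAAA.
NCAPD2, chr12:6493892-6494101: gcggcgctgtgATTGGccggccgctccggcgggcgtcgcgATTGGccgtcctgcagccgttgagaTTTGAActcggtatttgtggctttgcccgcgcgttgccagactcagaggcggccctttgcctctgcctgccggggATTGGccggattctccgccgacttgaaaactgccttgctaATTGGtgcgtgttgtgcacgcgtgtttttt
NCAPG, chr4:17810879-17810978: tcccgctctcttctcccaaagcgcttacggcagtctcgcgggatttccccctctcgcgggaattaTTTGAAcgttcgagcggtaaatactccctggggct
NCAPH, chr2:96335636-96335735: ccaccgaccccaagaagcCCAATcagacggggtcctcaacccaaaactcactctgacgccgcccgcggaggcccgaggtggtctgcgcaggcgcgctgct
SMC4, chr3:160399550-160399649: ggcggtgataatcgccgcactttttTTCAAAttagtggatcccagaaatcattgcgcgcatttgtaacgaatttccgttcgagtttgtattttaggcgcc
SMC2, chr9:104094294-104094323: ctcgcgccgaaaTTCAAAggaataaatagt

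The NCAPD2 window held 4 CCAAT matches, at -199, -170, -70 and -30 from the start site, and 1 CHR match at -145. NCAPG had a CHR match at -35, SMC4 at -75 and SMC2 at -3, and NCAPH had CCAAT at -112. CHR letters were found in 4 of the 7 condensin windows and in 1 of the 7 cohesin windows, that of SMC3, against 16.4% of all 35116 RefSeq windows searched on both strands. CCAAT was in 2 of 7 condensin and 3 of 7 cohesin windows, against 34.6% of all windows. The E2F letters TTTGGCGC, TTTGCCGC, TTTCGCGC and TTTCCCGC, also searched on both strands, were in 3 cohesin windows (STAG1, SMC1A and STAG2) and in 0 condensin windows, against 3.31% of all windows. Matches of different motifs did not overlap within a window. These matches describe sequence in the windows and were not tested as sites.

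Library totals were 17579732 to 32651115 estimated counts in OCI-Ly1 and 9550092 to 20509500 in TMD8, and a subunit had at least 490 counts in every library. All 6 B-cell markers were detected, with sums of 1062 to 1285 TMM-normalised counts per 1000000 (CPM) in OCI-Ly1 and 2361 to 3080 in TMD8. Of 11 markers of other lineages the sum was 9.32 to 17.7 CPM in OCI-Ly1. In TMD8 that sum was 7.85 to 10.2 CPM under DMSO, 17.8 to 23.4 at the lower dose and 36.4 to 39.7 at 500 nM, led by COL1A1, at means of 3.67, 12.2 and 30.5 CPM, while CD3E and HBB were at 0 in all TMD8 groups. The 7 genes that passed 20000 TPM in some library held 14.2% to 14.4% of all TPM with DMSO and 21.0% to 22.5% at 500 nM in OCI-Ly1, and 52.7% to 60.6% with DMSO, 63.2% to 66.7% at 150 nM and 69.7% to 72.8% at 500 nM in TMD8. TPM add up to the same total in each library, so the TPM of all other genes in TMD8 were lowered by that share, more so at the higher dose. The part of these shifts in the results below was not tested.

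Levels of different subunits were set side by side per transcript length, in TPM (transcripts per 1000000). RAD21, the kleisin cut at anaphase, had the highest mean in each of the 6 groups, at 177 ± 11.7 TPM in OCI-Ly1 and 65.3 ± 10.5 in TMD8 with DMSO (SD, n = 3). Its CPM, 494 ± 20.8 and 355 ± 28.4, differed less between the lines than its TPM. With DMSO in OCI-Ly1 it was followed by SMC4 at 152 ± 14.5, NCAPD2 at 112 ± 0.401, SMC3 at 97.4 ± 9.78, SMC2 at 84.6 ± 5.82, NCAPG at 73.0 ± 5.32 and STAG2 at 68.6 ± 5.96 TPM. The lowest were SMC1A at 41.5 ± 1.65, NCAPH at 37.2 ± 0.958 and STAG1 at 30.3 ± 2.23 TPM. Neighbours in this order overlapped between libraries for RAD21 and SMC4, SMC3 and SMC2, SMC2 and NCAPG, and NCAPG and STAG2. In TMD8 with DMSO, RAD21, SMC4 (52.3 ± 8.95 TPM) and NCAPD2 (47.3 ± 6.0) also came first. RAD21 overlapped SMC4 and SMC4 overlapped NCAPD2, while NCAPD2 was clear of the next gene. SMC3, STAG2, SMC1A, SMC2, NCAPH and NCAPG followed at means from 26.4 to 15.5 TPM, each overlapping the next, and STAG1 was lowest at 11.2 ± 1.79. At 500 nM the lowest member was still STAG1 in OCI-Ly1, at 27.3 ± 0.244 TPM, but NCAPH in TMD8, at 6.37 ± 0.383, a range that overlapped that of NCAPG at 7.10 ± 0.725.

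The first comparison was between the lines under DMSO. Condensin and cohesin transcripts were higher in OCI-Ly1, 9 of 10 by edgeR's quasi-likelihood test at an adjusted p under 0.05, where 37.8% of all tested genes were called higher and 39% lower. In all 10 the libraries of the lines did not overlap, and in 76.4% of all tested genes. The largest difference was in NCAPG, with 252, 254 and 274 CPM in OCI-Ly1 and 117, 104 and 103 in TMD8, a log2 difference of 1.27 ± 0.063 (standard error, SE; edgeR adjusted p = 1.53e-16). SMC2 differed by 1.10 and SMC3 by 0.92 on the log2 scale, and the other 6 called members by 0.20 (NCAPH) to 0.62 (STAG2). These sizes depended on scaling: the cohesin and condensin medians were 0.48 and 0.57 by edgeR, 0.71 and 0.80 on median-centred TPM, and 1.44 and 1.53 on log2(TPM + 1), with all 10 members called higher on both TPM scales. SMC1A was the exception, at 301, 313 and 312 CPM in OCI-Ly1 and 339, 321 and 314 in TMD8. The log2 difference of -0.07 was not called (edgeR adjusted p = 0.199), and it turned to 0.08 with scaling by library size alone, 0.15 on median-centred TPM and 0.87 on log2(TPM + 1). On that last scale the median of all genes was itself 0.61 higher in OCI-Ly1, against -0.02 in the main fit.

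In OCI-Ly1 at 150 nM, 0 of the 10 transcripts were called by edgeR, with 0.889% of all tested genes called. DESeq2 also called 0, and 1 member, NCAPD2, had an unadjusted p under 0.05. Log2 fold changes ran from -0.11 in NCAPD2 to 0.11 in SMC2. SMC4 was at 551, 586 and 635 CPM with DMSO and 541, 605 and 661 at 150 nM, and SMC3 at 279, 294 and 323 CPM against 303, 311 and 327. The groups overlapped in every member. They did not overlap in 13.9% of all tested genes, so this count was not read as a result about the members.

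At 500 nM in OCI-Ly1, condensin split: SMC4, NCAPD2, NCAPG and NCAPH fell while SMC2 rose. Of cohesin, STAG1 and SMC1A were called lower by edgeR, and SMC3, RAD21 and STAG2 were not called. By edgeR, and by DESeq2, 6 members were lower and 1 higher, where 25.9% and 27.7% of all tested genes were called lower and higher. The median log2 fold change was -0.59 over the 5 condensin transcripts and -0.08 over the 5 cohesin transcripts, against 0.00 over all genes. Groups did not overlap in 9 of 10 members (all but SMC3), compared with 60.7% of all tested genes. The split of members depended on scaling: 3 higher and 5 lower with library size only, 3 and 4 on log2(TPM + 1), and 0 and 7 on median-centred TPM. On that first alternative and on log2(TPM + 1) the cohesin median was 0.01 and 0.06, while the condensin median stayed between -0.44 and -0.67 on all 6 scaling alternatives. On median-centred TPM the median log2 fold change of all tested genes was itself -0.12, with 2902 genes called higher and 6079 lower.

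SMC4, the ATPase partner of SMC2, had 361, 377 and 394 CPM at 500 nM against 551, 586 and 635 with DMSO in OCI-Ly1. Every treated library lay below every control library, a log2 fold change of -0.64 ± 0.067 (SE; edgeR adjusted p = 3.19e-07). SMC2 went the other way, with 361, 390.4 and 398 CPM under DMSO and 452, 420.4 and 448 at 500 nM. All 3 treated libraries were above the controls, a rise of 0.20 ± 0.056 (SE; edgeR adjusted p = 0.00531). The rise of SMC2 was not called on median-centred TPM, where it was 0.11 (limma adjusted p = 0.171) and the median of all genes was -0.12.

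NCAPD2, a HEAT-repeat subunit, had 410.2, 411 and 390.4 CPM with DMSO and 247, 249.7 and 261 at 500 nM in OCI-Ly1. Its fall of 0.68 ± 0.047 on the log2 scale (SE; edgeR adjusted p = 1.85e-09) was the largest of the 10. NCAPG, the other HEAT-repeat subunit, stood at 252, 254 and 274 CPM with DMSO and 169, 169 and 179 at 500 nM, a change of -0.59 ± 0.057. The kleisin NCAPH was at 130.1, 128 and 119 CPM with DMSO and 89.2, 94.3 and 95.1 at 500 nM, a change of -0.43 ± 0.057 (edgeR adjusted p = 5.46e-06). In all 3 genes the treated libraries were clear of the controls. Since whole cultures were sequenced, fewer dividing cells and less of these RNAs per cell cannot be told apart.

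Among the cohesin transcripts in OCI-Ly1, STAG1 showed the largest change at 500 nM, with 99.4, 95.1 and 94.2 CPM against 111, 118 and 123 under DMSO (log2 fold change -0.29 ± 0.060, SE; edgeR adjusted p = 0.000605). On log2(TPM + 1) it was -0.14 and not called. SMC1A had 282, 283 and 278 CPM against 301, 313 and 312, a change of -0.13 (edgeR adjusted p = 0.0326), and the call was lost when any 1 of 5 of the 6 libraries was left out (without the third 500 nM library, adjusted p = 0.0947), and on log2(TPM + 1) the change was 0.01. SMC3 was at 334, 317 and 314 CPM, a log2 fold change of 0.11 that was not called (edgeR adjusted p = 0.114), or 0.20 and called with library size only. STAG2, the alternative to STAG1, had 348, 338 and 337 CPM against 296, 319 and 337, also 0.11 and not called (edgeR adjusted p = 0.172), and was called at 0.19 with library size only. RAD21 was at 466, 468 and 464 CPM against 474, 494 and 515, a log2 fold change of -0.08 (edgeR adjusted p = 0.147). It turned to 0.06 on log2(TPM + 1) and was -0.17 and called lower on median-centred TPM (limma adjusted p = 0.0182). On that last scale the median of all genes was -0.12.

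Between the doses in OCI-Ly1, 6 members were lower and 0 higher at 500 nM than at 150 nM by edgeR, with 21.1% of all tested genes lower and 25.1% higher. Groups did not overlap in 7 members, and in 55.5% of all tested genes. SMC4 (-0.67), NCAPG (-0.64), NCAPD2 (-0.57) and NCAPH (-0.38) made up the condensin part and STAG1 (-0.26) and RAD21 (-0.15) the cohesin part. By DESeq2 7 were lower, SMC1A being added, and 0 higher. The RAD21 call was lost without the third 150 nM library (log2 difference -0.12, edgeR adjusted p = 0.0675) and with library size only (-0.07), and that of STAG1 on log2(TPM + 1) (-0.14). With library size only, 5 were lower and SMC2 was higher, by 0.17.

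**Figure D1:**
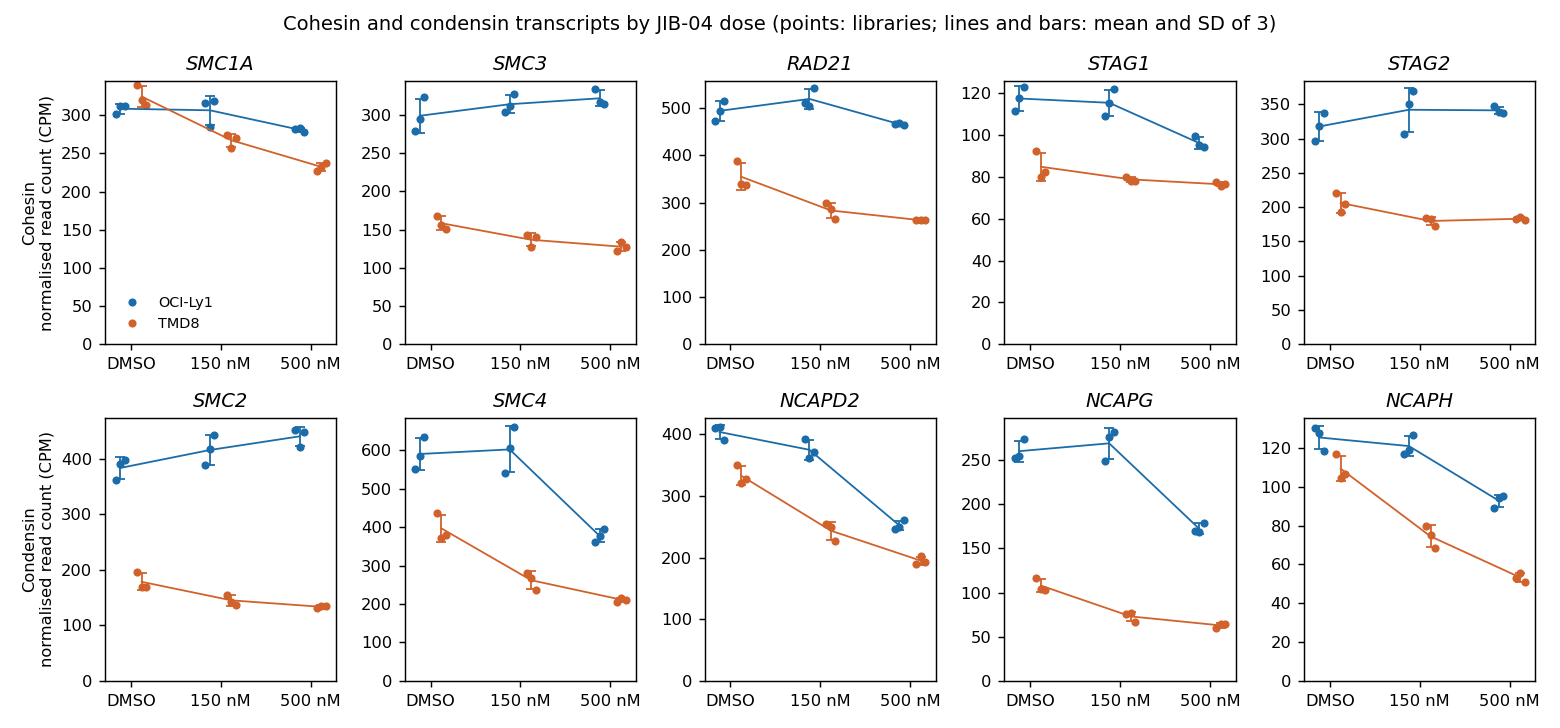
Normalised read counts (CPM, linear axis from 0) of the 5 cohesin transcripts (upper row) and 5 condensin transcripts (lower row) against JIB-04 dose, with OCI-Ly1 in blue and TMD8 in orange. Points are libraries and lines and bars give the mean and SD of 3; SMC4, NCAPD2, NCAPG and NCAPH of OCI-Ly1 are lower at 500 nM, SMC2 is higher there, and in TMD8 the condensin transcripts are already lower at 150 nM.

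TMD8 differed from OCI-Ly1 already at 150 nM. There 9 of 10 subunit transcripts fell by edgeR and 0 rose, where 25% of all tested genes were called lower and 19.2% higher. The median log2 fold change was -0.55 over condensin and -0.21 over cohesin, against 0.01 over all genes, and both medians stayed negative on all 6 scaling alternatives. The balance over all tested genes did depend on scaling, with 4098 higher and 2679 lower with library size only, and 1129 higher and 4183 lower on log2(TPM + 1). In 9 members the groups did not overlap, compared with 51.1% of all tested genes, and the exception in both counts was STAG1. DESeq2 gave the same counts of members in each TMD8 comparison.

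SMC4 in TMD8 went from 438, 373 and 379.8 CPM with DMSO to 282, 268 and 236 at 150 nM, a log2 fold change of -0.60 ± 0.063 (SE; edgeR adjusted p = 8.95e-07). NCAPG moved from 117, 104 and 103 to 76.0, 76.4 and 66.6 CPM (-0.56), NCAPH from 117, 105 and 106 to 79.7, 75.2 and 68.5 (-0.55), and NCAPD2 from 351, 321 and 328 to 255, 249.6 and 227 (-0.45). SMC2 had the smallest change of the condensin members, from 196, 169 and 169.6 to 155, 142 and 137 CPM (-0.30 ± 0.057, SE; edgeR adjusted p = 0.000397). All 5 had every treated library below every control. The first DMSO library was the highest of the 3 in each of these genes.

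In cohesin at 150 nM in TMD8, RAD21 showed the largest change, from 388, 339.6 and 337 CPM to 298, 286 and 266 (log2 fold change -0.32 ± 0.054, SE; edgeR adjusted p = 0.000108). SMC1A was -0.28, SMC3 -0.21 and STAG2 -0.19, all called lower. SMC3 was not called with scaling by library size alone (-0.12, edgeR adjusted p = 0.0612). STAG1 had 80.1, 78.2 and 78.2 CPM against 92.6, 79.9 and 82.2, a log2 fold change of -0.10 that was not called (edgeR adjusted p = 0.131).

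At 500 nM in TMD8, again 9 of 10 were lower and 0 higher by edgeR, where 30.7% of all tested genes were called lower and 29.9% higher. NCAPH changed most, from 117, 105 and 106 CPM with DMSO to 53.2, 55.6 and 51.0, a log2 fold change of -1.0 ± 0.060 (SE; edgeR adjusted p = 1.77e-10). SMC4 stood at 206, 217 and 211 CPM (-0.87 ± 0.064, SE), NCAPG at 60.0, 63.9 and 64.4 (-0.75 ± 0.061) and NCAPD2 at 190.1, 202 and 193 (-0.74 ± 0.051). SMC2 was at 131, 135 and 134 CPM, lower by edgeR like its partners but less so, at -0.39 ± 0.058. Condensin had a median log2 fold change of -0.75 and cohesin of -0.28, against 0.04 over all genes. The cohesin median was -0.18 with library size only and -0.62 on log2(TPM + 1), and the condensin median -0.66 and -1.08, where the median of all genes was 0.13 and -0.22. The groups did not overlap in any of the 10 members, compared with 65.6% of all tested genes not overlapping.

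The cohesin pair SMC1A and SMC3 stood at 228, 232 and 238 CPM and at 122, 133 and 127 CPM in TMD8 at 500 nM, changes of -0.45 and -0.28 (edgeR adjusted p = 1.95e-07 and 0.00033). RAD21 was at 263, 263 and 262 CPM (-0.40). STAG2 had 183, 185 and 181 CPM against 221, 193 and 205 with DMSO, a change of -0.14 (edgeR adjusted p = 0.0233). That call was lost without the first DMSO library (-0.10, adjusted p = 0.0696), without any 1 of the 500 nM libraries, and with library size only (-0.04). STAG1, at 77.4, 75.5 and 76.5 CPM, was the 1 member not called, at -0.12 (edgeR adjusted p = 0.0727), and was called lower on 3 of 3 TPM scales. It was also called lower by edgeR with all 18 libraries (-0.15, adjusted p = 0.0404) and without the low-count filter (-0.14, 0.0418). The same held without the second DMSO library (-0.16, 0.0315), while in all other alternatives, DESeq2 among them, it was not called.

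From 150 to 500 nM in TMD8, 5 members were lower and 0 higher by edgeR, with 15% of all tested genes lower and 13.7% higher. Groups did not overlap in 8 members, and in 44.9% of all tested genes. The 5 were NCAPH (-0.45), NCAPD2 (-0.29), SMC4 (-0.28), NCAPG (-0.19) and SMC1A (-0.17). The count was 3 without the first 500 nM library, where the calls of NCAPG and SMC1A were lost. NCAPG was also lost without either other 500 nM library and without the first or second 150 nM library. SMC2 (-0.09), SMC3 (-0.07), RAD21 (-0.08), STAG1 (-0.01) and STAG2 (0.06) were not called.

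**Figure D2:**
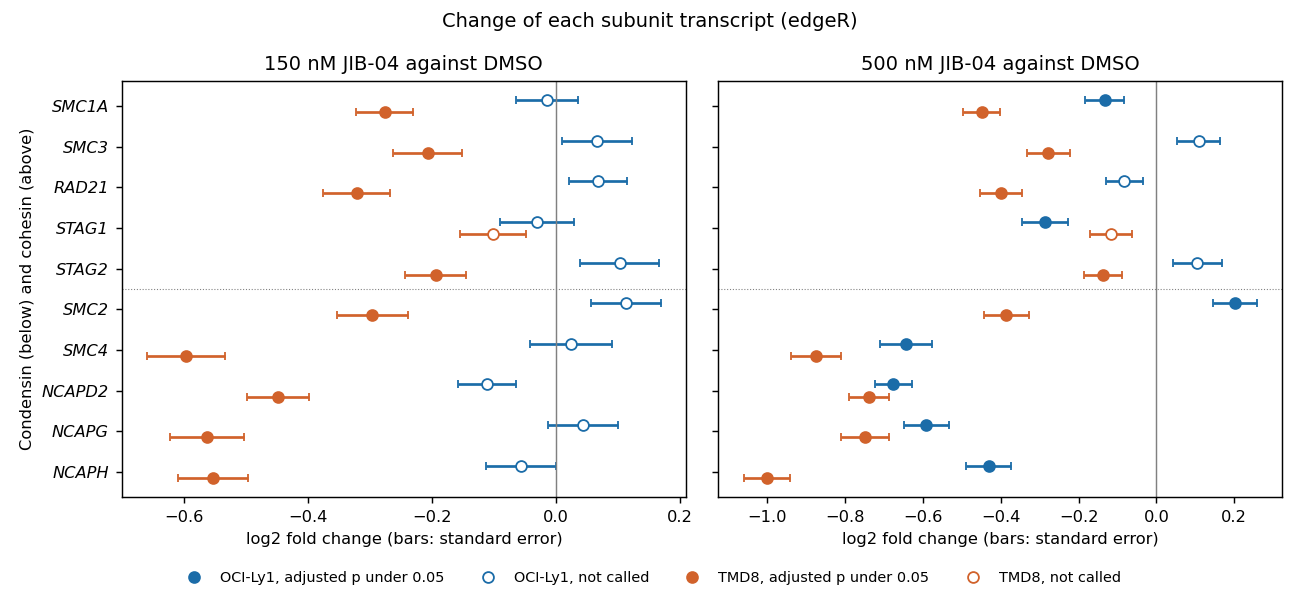
Log2 fold change against DMSO (x axis, edgeR) of each subunit (y axis, cohesin above the dotted line and condensin below it) at 150 nM (left) and 500 nM (right), with standard errors as bars. Filled points have an adjusted p under 0.05; at 150 nM only TMD8 points (orange) are filled, and at 500 nM SMC2 of OCI-Ly1 (blue) is the single filled point right of 0.

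The difference between the lines was tested directly, by taking the TMD8 change from the OCI-Ly1 change. At 150 nM it was above 0 for 9 of 10 members by edgeR, where 15% of all tested genes were called above 0 and 8.33% below it. It was largest for SMC4 (0.63 ± 0.104, SE; edgeR adjusted p = 8.82e-05) and NCAPG (0.61 ± 0.090), and STAG1 (0.08) was not called. The SMC3 difference of 0.28 was lost with library size only and without the first DMSO library of either line or the second 150 nM library of TMD8 (adjusted p from 0.0503 to 0.0737).

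At 500 nM the difference was called above 0 for 7 members, where 28.2% of all tested genes were above 0 and 18.1% below it. It was largest for SMC2 (0.62 ± 0.090, SE; edgeR adjusted p = 3.23e-06) and NCAPH (0.60 ± 0.087), followed by SMC3 (0.42), RAD21 and SMC1A (0.35 each), STAG2 (0.27) and SMC4 (0.26). NCAPD2 (0.09) and NCAPG (0.19) were not called. The SMC4 difference had an adjusted p of 0.041 by edgeR and was lost without any 1 of 7 of the 12 libraries (up to 0.134 without the first DMSO library of TMD8). Its call was also lost with library size only (0.23, edgeR adjusted p = 0.0523) and on median-centred TPM (0.26, limma adjusted p = 0.0764). STAG1 was -0.14 and not called. It was called below 0 with library size only (-0.18) and without the first DMSO library of TMD8 (-0.20), and above 0 on log2(TPM + 1) (0.30), where all 10 members were called above 0 and the median over all genes was 0.38.

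Ratios between subunits within a library do not depend on the scaling of libraries. The SMC4 to SMC2 ratio in TPM, a pair examined after the change of its members was seen, was, for OCI-Ly1, 1.79 ± 0.059 under DMSO, 1.69 ± 0.059 with 150 nM and 1.0 ± 0.061 with 500 nM (SD, n = 3). In TMD8 it was 2.59 ± 0.027, 2.11 ± 0.090 and 1.85 ± 0.014. Its libraries at 500 nM, at 0.932, 1.05 and 1.03 for OCI-Ly1 and 1.85, 1.87 and 1.84 for TMD8, lay below all DMSO libraries of their line. The log2 differences were -0.84 and -0.48, each with an exact two-sided permutation p of 0.1, the smallest that 3 libraries against 3 allow.

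The STAG2 to STAG1 ratio sets the alternative cohesin subunits side by side. In OCI-Ly1 it was 2.27 ± 0.031 with DMSO, 2.49 ± 0.114 at 150 nM and 2.98 ± 0.042 at 500 nM (SD, n = 3), with libraries of 2.23, 2.27 and 2.30 under DMSO and 2.94, 3.0 and 3.01 at 500 nM. The groups did not overlap, and the log2 difference was 0.40 (exact permutation p = 0.1, the smallest possible). In TMD8 it was 2.05 ± 0.043 with DMSO, 1.92 ± 0.056 at 150 nM and 2.01 ± 0.044 at 500 nM. Its groups overlapped between DMSO and 500 nM (log2 difference -0.02, exact permutation p = 0.4). At 150 nM the libraries lay below those with DMSO in TMD8 (log2 difference -0.09) and above them in OCI-Ly1 (0.13). Each of these had an exact permutation p of 0.1.

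SMC3 and SMC1A, which form the cohesin pair, stood at a TPM ratio of 2.34 ± 0.142 with DMSO and 2.77 ± 0.085 at 500 nM in OCI-Ly1 (log2 difference 0.24) and 1.18 ± 0.019 and 1.33 ± 0.056 in TMD8 (0.17; SD, n = 3). Both had an exact permutation p of 0.1, the smallest possible. Like the SMC4 to SMC2 ratio, the SMC3 to SMC1A ratio was not planned beforehand. Between the lines with DMSO the log2 difference of this ratio was 0.99. The summed TPM of the 5 condensin members, as a ratio to that of the 5 cohesin members, was, for OCI-Ly1, 1.11 ± 0.025 under DMSO, 1.07 ± 0.018 with 150 nM and 0.833 ± 0.033 with 500 nM. In TMD8 it was 1.02 ± 0.009, 0.867 ± 0.040 and 0.756 ± 0.013. This sum was given no test.

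**Figure D3:**
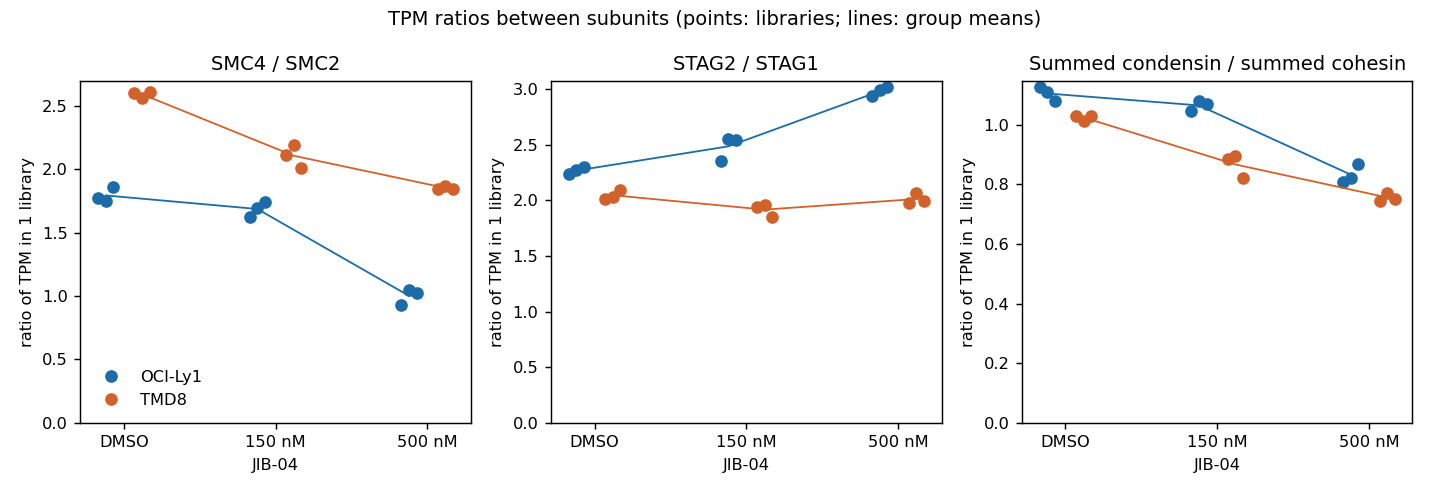
Ratios of TPM within a library (y axes from 0) for SMC4 over SMC2, STAG2 over STAG1, and summed condensin over summed cohesin, against JIB-04 dose; points are libraries and lines join the group means, OCI-Ly1 in blue and TMD8 in orange. The SMC4 to SMC2 ratio of OCI-Ly1 is near 1.0 at 500 nM, and the STAG2 to STAG1 ratio is higher at 500 nM in OCI-Ly1 but overlaps DMSO in TMD8.

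Condensin II shares the SMC pair but not its other subunits. By edgeR, its kleisin NCAPH2 was higher at 500 nM in OCI-Ly1 (172, 157 and 146 CPM with DMSO against 197, 205 and 186; log2 fold change 0.31, adjusted p = 0.000868). It was higher too in TMD8, at 88.8, 91.2 and 90.9 CPM with DMSO and 133, 139 and 131 at 500 nM (0.61, edgeR adjusted p = 1.52e-08). NCAPD3 was lower by edgeR in both lines at 500 nM, at -0.17 and -0.21, and NCAPG2 in TMD8, at -0.31, with -0.05 and no call in OCI-Ly1. At 150 nM in TMD8 these 2 genes were also lower by edgeR, at -0.24 and -0.27. The kleisins NCAPH and NCAPH2 thus changed in opposite directions in both lines.

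A list of 14 cohesin regulators held its loaders, release factors, acetylating and deacetylating enzymes, protectors, securin and separase, and the boundary factor CTCF. At 150 nM in OCI-Ly1 0 were called by edgeR or DESeq2, beside 0.889% of all tested genes by edgeR, and 2 had an unadjusted p under 0.05. At 500 nM there 2 were higher and 3 lower by edgeR, and 2 and 4 by DESeq2, beside 27.7% and 25.9% of all tested genes by edgeR. In TMD8, by both tools, 2 were higher and 10 lower at 150 nM (19.2% and 25% of all tested genes by edgeR) and 3 higher and 11 lower at 500 nM (29.9% and 30.7%). PTTG1, the securin that holds separase inactive, went from 57.8, 53.3 and 50.2 CPM to 19.5, 20.9 and 18.4 at 500 nM in TMD8 (log2 fold change -1.42) and changed by -0.72 in OCI-Ly1. SGOL2 and SGOL1, older symbols of the shugoshins SGO2 and SGO1 that protect centromeric cohesin, were at -1.38 and -0.48 in TMD8 and -0.75 and -0.45 in OCI-Ly1, all called by edgeR. Separase, ESPL1, which cleaves RAD21, was at -0.79 and called in TMD8, and at -0.07 and not called in OCI-Ly1.

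Among the 7 genes of the related SMC5/6 complex, 1 was higher and 1 lower at 500 nM in OCI-Ly1 by edgeR and by DESeq2. In TMD8 2 were higher and 2 lower by edgeR, and 1 higher and 2 lower by DESeq2. Of all tested genes, 27.7% were higher and 25.9% lower by edgeR at 500 nM in OCI-Ly1, and 29.9% and 30.7% in TMD8. Counts of so few genes were not read as a result about the complex. NDNL2, the older symbol of NSMCE3, had the largest change of the 7 genes, at 0.70 in OCI-Ly1 and 1.06 in TMD8 (edgeR adjusted p = 6.91e-08 and 2.14e-09). NSMCE4A was at -0.51 and called in TMD8 and at -0.06 and not called in OCI-Ly1, and SMC6 was at -0.30 and called in TMD8 and at -0.04 and not called in OCI-Ly1. EID3, at group means of 0.93 to 1.90 CPM, was not called at 500 nM in either line.

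The meiotic cohesin subunits had group means of at most 17.3 CPM. SMC1B, which replaces SMC1A in meiosis, was at 1.27, 2.20 and 1.70 CPM with DMSO and 3.75, 3.27 and 3.04 at 500 nM in OCI-Ly1 (log2 fold change 0.99 ± 0.213, SE; edgeR adjusted p = 0.000791), from 33 to 131 counts a library. In TMD8 it was under 1 CPM in every library and not called. REC8, the meiotic kleisin, was at 9.26, 10.0 and 10.9 CPM with DMSO in TMD8 and 11.6, 13.1 and 14 at 150 nM, where it was called higher (log2 fold change 0.37, edgeR adjusted p = 0.00893). It was not called at 500 nM there (0.25, edgeR adjusted p = 0.0655) or at either dose in OCI-Ly1, at group means of 2.94 to 3.22 CPM. STAG3 was not called at either dose in either line, at group means of 15.6 to 17.3 CPM in OCI-Ly1 and 3.06 to 3.22 in TMD8. RAD21L1, with at most 3 counts in a library, was not tested.

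For context, 18 mitotic genes (among them PLK1, CDC20, CCNB1 and KIF20A) were followed beside the subunits. This list too was chosen with earlier results of these data known, so its counts are a description. By edgeR 0 of 18 were called at 150 nM in OCI-Ly1, beside 0.889% of all tested genes. There 6 of the 18 had an unadjusted p under 0.05 and DESeq2 called 1 lower. All 18 were lower at 500 nM there and at both doses in TMD8. Of all tested genes, 25.9% were called lower by edgeR at 500 nM in OCI-Ly1. In TMD8 that share was 25% at 150 nM and 30.7% at 500 nM. The median log2 fold change of the mitotic genes at the lower and higher dose was -0.03 and -0.71 in OCI-Ly1, and for TMD8 it was -0.73 and -1.44. Condensin's median in the same order was 0.02, -0.59, -0.55 and -0.75. PLK1, the kinase that phosphorylates condensin in mitosis, was at -1.46 in OCI-Ly1 and -2.93 in TMD8 at 500 nM. The summed CPM of the mitotic genes was 4943 to 5350 with DMSO and 3127 to 3203 at 500 nM in OCI-Ly1, and 4262 to 4915 with DMSO, 2538 to 2921 at 150 nM and 1702 to 1716 at 500 nM in TMD8. How much of the subunit changes goes with the share of dividing cells was not tested.

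**Figure D4:**
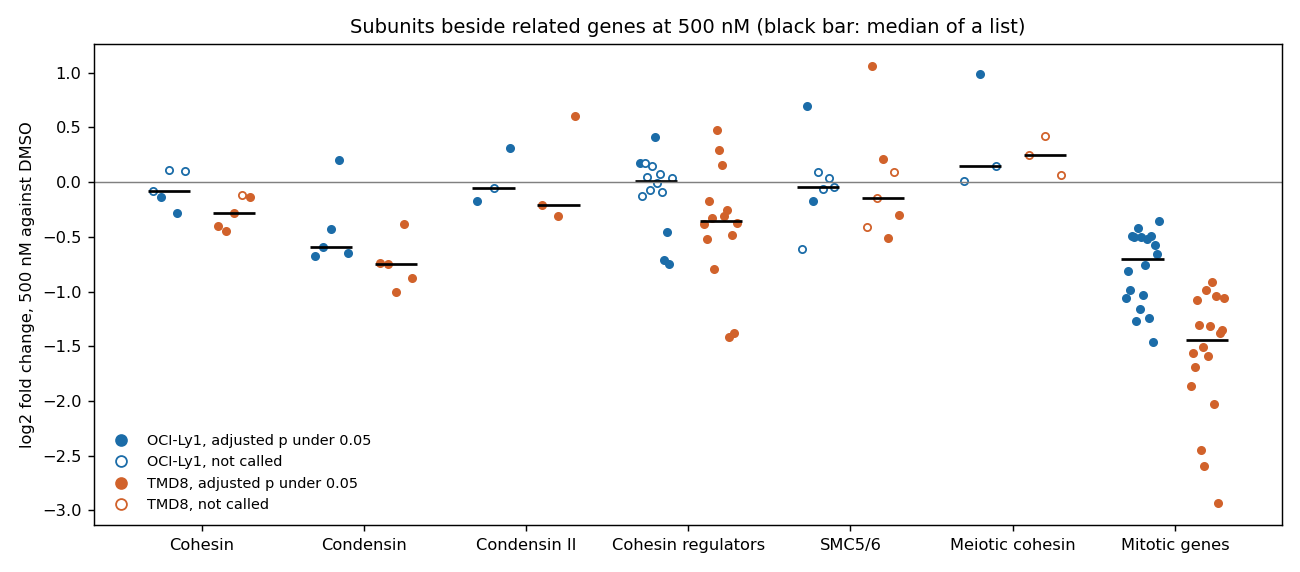
Log2 fold change at 500 nM against DMSO (y axis) of each gene in 7 lists (x axis), OCI-Ly1 in blue and TMD8 in orange, filled where the edgeR adjusted p was under 0.05, with black bars at list medians. Condensin medians of -0.59 and -0.75 lie between the cohesin medians of -0.08 and -0.28 and the mitotic medians of -0.71 and -1.44, and 1 condensin II gene, NCAPH2, is above 0 in both lines.

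The genes closest to the complexes were found over the 4 log2 fold changes against DMSO, among 9537 genes of at least 5 CPM in every group, by the root mean square difference from the median of each complex. For condensin they were COX7B (0.023), G2E3 (0.045) and SFXN1 (0.046), with COX7B at 0.02 (150 nM) and -0.60 (500 nM) in OCI-Ly1 and, at the same doses, -0.59 and -0.77 for TMD8. For cohesin they were VPS26A (0.0078), FAM222B (0.010) and RPS6KA3 (0.013), with VPS26A at 0.07 and -0.09 in OCI-Ly1, and TMD8 values of -0.21 and -0.26. The comparisons of a line share its DMSO libraries, so these profiles are descriptions.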

How the data were processed

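The authors deposited, for each line, a table of estimated counts and a table of TPM for the same 23686 gene symbols. Per the submitters' processing notes, kallisto 0.46.0 and hg19 were used, with R 4.3.1 and DESeq2 1.40.2; the index, annotation and gene-level step are not given in the sources used here. The deposited estimated counts were rounded to whole numbers. Genes were tested by quasi-likelihood in edgeR (version 4.0.16, under R 4.3.3), using TMM factors, edgeR's low-count filter by group, and Benjamini-Hochberg adjustment over all tested genes (15638 in OCI-Ly1, 15363 in TMD8), called under 0.05. The 9 libraries of a line shared 1 fit; comparisons between lines used 1 fit of 18. Printed CPM use TMM factors over all 18 libraries. Scripts were tested on simulated data. Alternatives used DESeq2 1.42.0, limma 3.58.1 on log2(TPM + 1), log2(TPM + 0.1) and the first of these with library medians set to 0, other scaling, filters and sample sets, and each library left out. TPM ratios were tested by exact permutation over libraries.

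The 10 members and all lists were chosen with earlier results of these data known. All members were named; of each wider list, at most 4 genes with the largest mean change at 500 nM. Of the list symbols 4 were matched through older ones. The counting strand is not stated, so overlapping genes (RAD21 with RAD21-AS1, STAG2 with STAG2-AS1, SMC4 with TRIM59-IFT80, NCAPG with LCORL, by RefSeq GRCh38.p14) cannot be told apart. Pairs of libraries within groups differed beyond sampling noise (chi-square per degree of freedom 1.65 to 11.5 over 18 pairs). Counting error only is covered by the depth given.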

Additional observations from a re-analysis of the deposited data

Results flagged for a closer look

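All of these are differences between the lines in the response to a dose, tested in 1 edgeR fit of 18 libraries and given as the OCI-Ly1 log2 fold change less the TMD8 one. At 150 nM the cohesin differences were 0.27 for SMC1A, 0.28 for SMC3, 0.4 for RAD21 and 0.3 for STAG2. In these 4 genes the 3 treated TMD8 libraries all lay below their controls, while the OCI-Ly1 groups overlapped. At this dose the groups did not overlap in 51.1% of all tested genes in TMD8, and in 13.9% in OCI-Ly1. The 4 genes were picked by calls on these same libraries, so this pattern adds no separate evidence. The condensin differences at 150 nM were 0.42 for SMC2, 0.63 for SMC4, 0.34 for NCAPD2, 0.61 for NCAPG and 0.5 for NCAPH, with edgeR adjusted p from 2.46e-05 to 0.00166.

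At 500 nM the cohesin differences were 0.35 for SMC1A, 0.42 for SMC3, 0.35 for RAD21 and 0.27 for STAG2. SMC2 differed by 0.62, the result of a rise of 0.20 in OCI-Ly1 and a fall of 0.39 in TMD8, and was the 1 member called in opposite directions by edgeR. SMC4 differed by 0.26 and NCAPH by 0.6, both lower in both lines and further in TMD8. The SMC4 call was lost with library size only, on median-centred TPM and with some libraries left out in turn.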

How the results depend on the processing

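Of 1500 recomputed member changes, 1399 kept their direction and their side of the threshold, 40 lost a call, 27 gained one and 34 changed sign. No change of sign occurred in TMD8 against DMSO at either dose. Without the first 500 nM library, TMD8 had 3 members called between doses (range 3 to 5 over left-out libraries, 5 in all). The replicate numbers were not taken as pairing, since not every same-numbered pair had correlated deviations above 0.1: these ran from -0.067 to 0.256 in OCI-Ly1 and -0.066 to 0.174 in TMD8, against -0.283 to 0.071 and -0.216 to 0.156 for differently numbered pairs. The highest values, 0.255 and 0.256, were same-numbered DMSO and 150 nM libraries of OCI-Ly1. With a replicate block the members called were the same in number: 0, 7 and 6 in OCI-Ly1 (150 nM, 500 nM, between doses), 9, 9 and 5 in TMD8, 9 and 7 for the differences between lines, and 9 for the DMSO comparison.

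Sign changes, with the causes not tested, were these. In OCI-Ly1 at 150 nM, SMC1A became 0.016 on log2(TPM + 1) and log2(TPM + 0.1), and STAG1 0.0024 on both; with libraries left out in turn SMC1A ran from -0.044 to 0.038, STAG1 from -0.071 to 0.015 and SMC4 from -0.047 to 0.10. At 500 nM, SMC1A became 0.0056 and 0.0057 on log2(TPM + 1) and log2(TPM + 0.1), and RAD21 0.0052 with library size only and 0.057 on both TPM scales. Between the doses in OCI-Ly1, SMC3 became -0.047 on centred TPM, and STAG2, at 0.00, became -0.0069 with DESeq2, -0.0068 with RLE factors, -0.018 without the filter, -0.081 on centred TPM, -0.00072 with 6 libraries, -0.0032 with 18, and ran from -0.081 to 0.058 with libraries left out in turn. In TMD8 between doses, STAG2 became -0.16 on both TPM scales. For the line differences, STAG1 became -0.0077 at 150 nM with library size only, and 0.30 and 0.34 at 500 nM on log2(TPM + 1) and log2(TPM + 0.1). SMC1A between lines under DMSO became 0.078 with library size only, 0.87 and 0.90 on log2(TPM + 1) and log2(TPM + 0.1), and 0.146 on centred TPM.

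The count of all genes called at 150 nM in OCI-Ly1, 139, was 240 with DESeq2, 323 without the filter, 61, 74 and 50 on the TPM scales, 81 with 6 libraries, 209 with 18, and 65 to 339 over left-out libraries. Of all genes called, the percentage higher at 500 nM was 51.6% in OCI-Ly1 and 49.3% in TMD8, against 64.0% and 59.4% with library size only and 71.9% and 18.8% on log2(TPM + 1). The median of all genes then moved to 0.10 in OCI-Ly1 and -0.22 in TMD8 on log2(TPM + 1).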
